A study of Arabidopsis thaliana with 11 samples.

Results

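AT5G17540, AT3G62040, AT5G22580 and AT2G27740 are Arabidopsis thaliana loci whose transcripts were higher on arrays from inflorescences labelled as NGATHA mutant or knockdown than on the arrays labelled wild type. They were chosen by name, because earlier results on these arrays had placed them among the largest increases, and each had 1 probe set, so the 4 loci correspond to 4 of the 22746 probe sets that are not controls. A probe set was kept if 4 or more arrays read 4 or higher on the log2 scale, which left 17910, and each of the 4 loci was at or above 4 on all 11 arrays. The comparison of nga-deficient with wild-type arrays is the one that chose the loci, so for them it is described here without a test, while the difference between the nga-deficient genotypes and the difference among the wild-type arrays by a note in the labels were tested.

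Expression was measured on 11 Affymetrix ATH1 arrays, a single-colour platform, from total RNA of inflorescences with flowers of stage 12 and younger, taken from plants of the Ler ecotype 30 days after sowing. Per the labels, 2 arrays came from the nga quadruple mutant (mutant alleles nga1-1, nga2-1, with nga3-1 and nga4-1), 2 from plants with the transgene 35S:miR-NGA, an artificial microRNA against NGA1 to NGA4 called amiR-NGA here (the series design text writes 35S:amiR-NGA164a), and 7 from wild type. The 4 mutant and amiR-NGA arrays together are called nga-deficient, as the series design text groups them. The 35S promoter is active in most plant tissues, so the microRNA is not limited to the cells that normally express NGATHA genes, and the labels do not say how many transgenic lines were used. Wild-type replicates 2, 3 and 4 carry a note of long days, the other 4 wild-type arrays carry none, and no label tells whether replicates are separate plants, so the spread behind each p-value may be technical.

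NGA1 to NGA4 encode transcription factors with a B3 DNA-binding domain that act redundantly in the growth of the style and stigma at the top of the gynoecium. The loci described here encode proteins of unrelated families; the gene table used for naming lists them by locus alone, so the family assignments are background knowledge. AT5G17540 belongs to the BAHD acyltransferases, enzymes that move an acyl group from coenzyme A to an alcohol or amine and so make esters and amides, among them cuticle and suberin components, volatile esters and phenolic conjugates. AT3G62040 is a hydrolase-like protein of the haloacid dehalogenase (HAD) superfamily, which holds many phosphatases. AT5G22580 is a small protein with a stress-responsive A/B barrel domain, and AT2G27740 belongs to a family of coiled-coil proteins (DUF662) named for their similarity to a golgin that interacts with RAB6.

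The array values are log2 expression values on the GC-RMA scale, which models each probe's background from its bases. Differences that involve dim transcripts are inexact. Array medians ran from 6.08 to 6.27, and the lower quartile of all values was 4.11. The targeted genes did not all follow the labels: NGA1 measured 6.95 and 6.50 on the quadruple mutant arrays and 5.02 and 4.88 on the amiR-NGA arrays, against 5.602 to 5.99 on wild-type replicates 1 to 4 and 10.50 to 11.003 on wild-type replicates 5 to 7, so the controls are named here by their label. NGA3 and NGA4 were lower on every nga-deficient array than on any array labelled wild type. NGA2 measured 4.68 and 4.77 on the quadruple mutant arrays and 5.34 and 5.47 on the amiR-NGA arrays, against 5.19 to 5.52 on the arrays labelled wild type, so its amiR-NGA values lay within the range of the controls. The 3-prime signal of the actin control exceeded its 5-prime signal by 2.05 to 2.11 on quadruple mutant replicate 1 and wild-type replicates 1 and 2, and by 1.09 to 1.31 on the remaining 8. Results are therefore also given without those 3 arrays and against each subset of the controls. Of the 12 floral identity genes on the marker list 1 was matched to a named probe set, UFO, and it did not pass the filter, so the list could not check the tissue; the tapetum marker AT5G07230 measured 11.59 to 12.46 on all 11 arrays, and the 2 measured root markers, PYK10 and EXPA7, lay at 3.62 to 4.83.

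AT5G17540, the BAHD acyltransferase, showed the widest separation of the 4 loci. Its log2 expression was 7.09 and 7.44 on quadruple mutant replicates 1 and 2 and 6.49 and 6.52 on amiR-NGA replicates 1 and 2. On the arrays labelled wild type it was 4.13 at the lowest, 4.19 at the median and 4.43 at the highest. The lowest nga-deficient array stood 2.06 above the highest wild-type array, the largest such gap of the 17910 kept probe sets, while the 7 wild-type arrays spanned 0.30 in all and lay near the lower quartile of all values. Its mean was 6.89 ± 0.46 (SD, n = 4) on nga-deficient arrays and 4.24 ± 0.11 (n = 7) on arrays labelled wild type, a log2 difference of 2.65 (SE 0.17). By genotype the difference from the arrays labelled wild type was 3.02 (SE 0.13) in the quadruple mutant and 2.27 (SE 0.13) in amiR-NGA. These differences, 8.14-fold and 4.81-fold, use the same 7 controls and are given side by side for that reason, and a wild-type level so near the dim end makes the folds inexact.

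**Figure D1:**
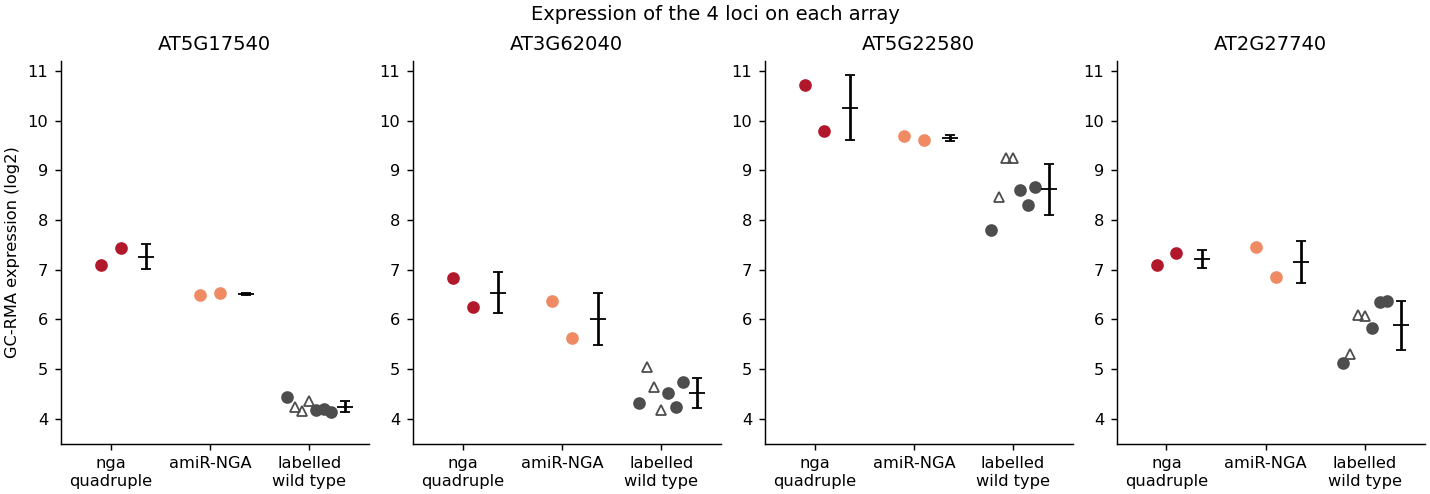
Log2 GC-RMA expression (vertical axis) of AT5G17540, AT3G62040, AT5G22580 and AT2G27740 on each of the 11 arrays, by group, in 4 panels with the same scale. Points are single arrays in order of replicate number, open triangles are the 3 wild-type arrays with the note of long days, and the bars beside them are the mean ± SD of each group (n = 2, 2 and 7). In every panel the nga-deficient arrays lie above all arrays labelled wild type, with the widest gap, 2.06, for AT5G17540.

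AT3G62040, the HAD-superfamily protein, was next by the size of its difference. It measured 6.82 and 6.24 on quadruple mutant replicates 1 and 2 and 6.37 and 5.63 on amiR-NGA replicates 1 and 2. The arrays labelled wild type ran from 4.18 to 5.03 with a median of 4.52. The groups did not overlap, and amiR-NGA replicate 2, the lowest nga-deficient array, stood 0.60 above wild-type replicate 2, the highest control. The nga-deficient mean was 6.27 ± 0.49 (SD, n = 4) and the mean of the arrays labelled wild type 4.52 ± 0.30 (n = 7), a log2 difference of 1.75 (SE 0.21). The difference was 2.01 (SE 0.25) in the quadruple mutant and 1.48 (SE 0.25) in amiR-NGA. The amiR-NGA value rests on 2 arrays that are 0.74 apart, and it was 1.11 without amiR-NGA replicate 1 and 1.85 without amiR-NGA replicate 2.

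AT5G22580, the A/B barrel protein, was bright in every group. It measured 10.72 and 9.80 on quadruple mutant replicates 1 and 2 and 9.69 and 9.62 on amiR-NGA replicates 1 and 2, against a lowest value of 7.81, a median of 8.61 and a highest value of 9.24 on the arrays labelled wild type. The nga-deficient arrays lay 0.37 or more above all others, but the spread among the arrays labelled wild type, 1.44, exceeded the difference between the means. These means were 9.96 ± 0.51 (SD, n = 4) on nga-deficient arrays and 8.62 ± 0.51 (n = 7) on arrays labelled wild type, a log2 difference of 1.34 (SE 0.28). The difference in the quadruple mutant was 1.64 (SE 0.34), and in amiR-NGA it was 1.03 (SE 0.34).

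Its highest value came from an array of high actin difference, quadruple mutant replicate 1, and its lowest from another, wild-type replicate 1. Once the 3 arrays of high actin difference were dropped, the nga-deficient minus wild-type difference was 0.89 (SE 0.21), and the quadruple mutant difference, then from 1 array that is assumed to vary like the other groups, was 0.98 (SE 0.33). The summed linear signal of the 8 measured pollen markers was also highest on quadruple mutant replicate 1, at 1556, with 927 on quadruple mutant replicate 2, 943 and 782 on the amiR-NGA arrays and 683 to 1067 on the arrays labelled wild type. The part of RNA quality or of pollen transcripts in the value of AT5G22580 was not tested.

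AT2G27740, the DUF662 protein, differed least between the genotypes. It measured 7.09 and 7.35 on quadruple mutant replicates 1 and 2 and 7.45 and 6.86 on amiR-NGA replicates 1 and 2. On the arrays labelled wild type it ran from 5.13 to 6.37 with a median of 6.07, and the lowest nga-deficient array stood 0.49 above the highest of them. The means were 7.19 ± 0.26 (SD, n = 4) on nga-deficient arrays and 5.88 ± 0.49 (n = 7) on arrays labelled wild type, a log2 difference of 1.31 (SE 0.24), with 1.34 (SE 0.31) in the quadruple mutant and 1.28 (SE 0.31) in amiR-NGA.

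The 2 lowest controls for AT2G27740, at 5.13 and 5.31, were wild-type replicates 1 and 2, which had the high actin difference, while the other 5 lay between 5.82 and 6.37. With the 3 arrays dropped, the nga-deficient difference was 1.08 (SE 0.16). It was 1.01 (SE 0.19) against wild-type replicates 5 to 7 alone and 1.53 (SE 0.24) against wild-type replicates 1 to 4 alone. For AT5G17540 the same subsets of controls gave 2.72 and 2.59, and dropping the 3 arrays gave 2.61. For AT3G62040 they gave 1.77 and 1.73, and 1.62 once the 3 arrays were dropped. For AT5G22580 the subsets gave 1.43 and 1.27.

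**Figure D2:**
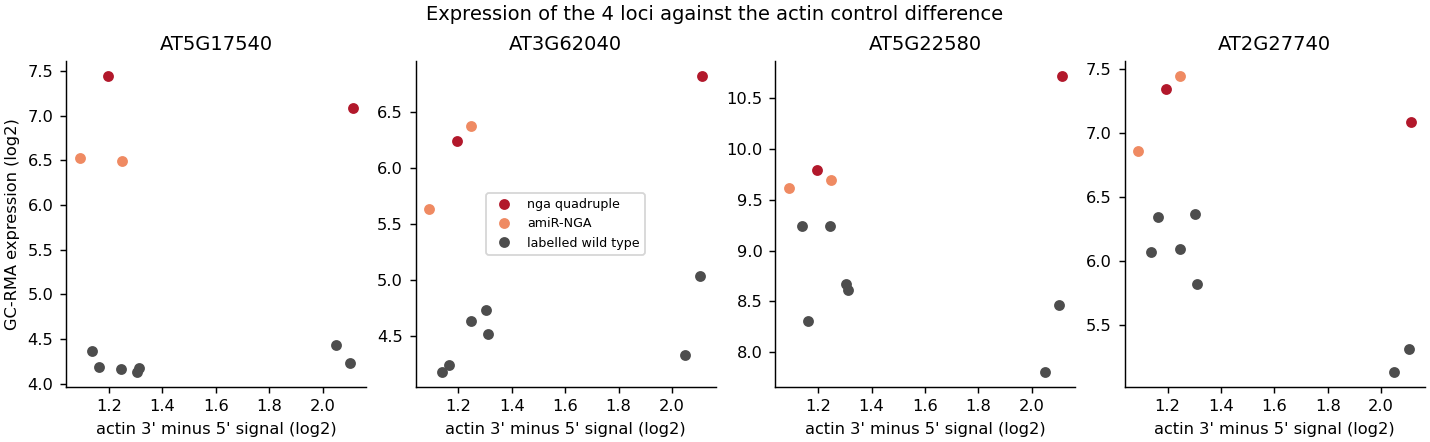
Log2 GC-RMA expression (vertical axis, a separate scale in each panel) of the 4 loci against the 3-prime minus 5-prime difference of the actin control signal on each array (horizontal axis, log2). Each point is 1 of 11 arrays, coloured by group. The 3 arrays at 2.05 to 2.11 hold the highest value of AT3G62040 and of AT5G22580 and the 2 lowest values of AT2G27740, and at the other end of the axis, 1.09 to 1.31, the nga-deficient arrays still lie above those labelled wild type in all 4 panels.

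The 4 loci were read against the rest of the array. In all 4 the nga-deficient arrays lay above every array labelled wild type, as they did for 3.06% of kept probe sets, and all 4 were among the 1.33% that were higher past the limma threshold in this comparison; since they were chosen on it, nothing is read from these shares. In the quadruple mutant all 4 were past the threshold, where 4.17% of kept probe sets were (1.94% higher and 2.23% lower). In amiR-NGA AT5G17540 and AT3G62040 were past it and AT5G22580 and AT2G27740 were not, where 0.932% were (0.117% higher and 0.815% lower). Both genotype comparisons use the arrays on which the loci were chosen, so these counts are a description and nothing is read from them either. By log2 difference in the nga-deficient comparison they ranked 2, 12, 79 and 88 of 17910 among all probe sets, in the order AT5G17540, AT3G62040, AT5G22580 and AT2G27740. Past the threshold 239 probe sets were higher and 553 lower, a share of higher calls of 30.2%, which was 40.4% once array medians were made equal (316 higher, 467 lower). The median difference of all kept probe sets was -0.02. Tissue was measured in bulk, so a change in the number of cells that express a locus and a change of RNA per cell cannot be told apart.

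Whether the quadruple mutant and amiR-NGA differed for these loci was tested in the fit of 3 groups, on a contrast that did not choose them. None of the 4 differences passed after Benjamini-Hochberg adjustment over 17910 probe sets, of which 0.134% (24) passed, 0.101% higher and 0.0335% lower in the quadruple mutant. For AT5G17540 the means were 7.26 ± 0.25 (SD, n = 2) in the quadruple mutant and 6.51 ± 0.02 (n = 2) in amiR-NGA, a log2 difference of 0.76 (limma 95% interval 0.40 to 1.11, adjusted p = 0.216). Both quadruple mutant arrays lay above both amiR-NGA arrays. That order was seen for 2 of the 4 loci, AT5G17540 and AT5G22580, and for 18% of all kept probe sets. With array weights the AT5G17540 difference passed (limma adjusted p = 0.0499), and over the alternatives its adjusted p ran up to 1.

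For AT5G22580 the quadruple mutant averaged 10.26 ± 0.65 (SD, n = 2) and amiR-NGA 9.66 ± 0.06 (n = 2), a log2 difference of 0.60 whose limma 95% interval ran from -0.33 to 1.54 (adjusted p = 0.804). It was 0.14 once those 3 arrays were dropped. For AT3G62040 the averages were 6.53 ± 0.41 in the quadruple mutant and 6.003 ± 0.52 in amiR-NGA (SD, n = 2 each), a log2 difference of 0.53 (limma 95% interval -0.16 to 1.22, adjusted p = 0.763). For AT2G27740 they were 7.22 ± 0.18 in the quadruple mutant and 7.16 ± 0.42 in amiR-NGA (SD, n = 2 each), a log2 difference of 0.06 (limma 95% interval -0.79 to 0.91, adjusted p = 0.981). The last 3 intervals hold 0 but are wide, so they do not show that the genotypes act alike. By mean the quadruple mutant lay above amiR-NGA for all 4 loci, but these 2 groups did not differ beyond the threshold for any of them. For AT2G27740 this difference ran from -0.23 to 0.36 when 1 array was left out. Both groups lay above the arrays labelled wild type by mean, which the choice of the loci made likely. How common this order of means is among all kept probe sets was not counted.

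Among the arrays labelled wild type, those with the note of long days were compared with those without it. NGA1 was low on wild-type replicates 1 to 4, which include every array with the note, and high on replicates 5 to 7, which all lack it. The note and the NGA1 level can therefore hardly be told apart here. No probe set passed the limma threshold in this comparison (0%), and 289 of 17910 had an unadjusted p under 0.05. AT5G22580 measured 8.47, 9.24 and 9.24 on the arrays with the note and 7.81, 8.61, 8.30 and 8.67 on replicates 1, 5, 6 and 7 without it. Replicates 3 and 4, both with the note, lay above every control without it, and replicate 2 lay within their range. The log2 difference was 0.63 (limma 95% interval 0.03 to 1.24, adjusted p = 1), and with array weights it was 0.75 (adjusted p = 0.0241, with 446 probe sets past the threshold in that fit).

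The other loci showed smaller differences by the note. AT3G62040 averaged 4.61 ± 0.43 (SD, n = 3) with it and 4.45 ± 0.22 (SD, n = 4) without it. AT5G17540 averaged 4.25 ± 0.10 with the note and 4.23 ± 0.13 without it. AT2G27740 averaged 5.83 ± 0.45 with the note and 5.92 ± 0.58 without it. The limma adjusted p was 1 for each of them, and the 95% intervals of the differences were -0.33 to 0.65, -0.29 to 0.33 and -0.83 to 0.65. With the note as a covariate, the nga-deficient minus wild-type difference was 1.61 (SE 0.28) for AT5G22580, against 1.34 without it, and 2.65, 1.81 and 1.27 for AT5G17540, AT3G62040 and AT2G27740. No nga-deficient array carries the note, so these values are differences from the 4 wild-type arrays without it. They do not show that an effect of long days was removed.

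No pair of the loci had a correlation past the threshold among the controls. Over the 7 arrays labelled wild type the strongest of 6 correlations between loci was that of AT5G17540 with AT2G27740 (Pearson r = -0.63, exact permutation p = 0.127, adjusted p = 0.491 over the 6 pairs, Spearman rho = -0.75, exact permutation p = 0.0663). It was -0.81 without the 2 arrays farthest from the median of AT5G17540, and -0.26 without wild-type replicates 1 and 2, which left 5 arrays. The smallest adjusted p of the 6 pairs was 0.491.

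The families of the loci were examined next, with lists of their other genes. Of 59 other BAHD acyltransferase loci listed, 45 were matched to a probe set of 1 gene and 37 were kept. Past the limma threshold of the nga-deficient comparison 0 of the 37 were higher and 1 was lower, against 1.33% higher and 3.09% lower of all kept probe sets, so at these shares the counts say little about the family. With the replicate number as a block, 8 of the 47 other kept genes of the 4 family lists were higher past the threshold. Calls over all kept probe sets rose in that fit as well, and no label pairs arrays by that number. Nothing is therefore read from this count. Of the 37, 14 had a difference above 0 and 23 below, with a median of -0.04 against -0.02 for all kept probe sets. Many are dim in this tissue, 19 of them averaging under 5 on the arrays labelled wild type, where a fall could hardly be seen.

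BAT1 (AT4G31910), a BAHD enzyme that acts on brassinosteroid hormones, was the one that fell. It measured 6.76 and 6.80 on the quadruple mutant arrays and 6.72 and 7.28 on the amiR-NGA arrays. The arrays labelled wild type ran from 7.37 to 8.13 with a median of 7.80. The highest nga-deficient array, at 7.28, thus lay only just below the lowest control, at 7.37. BAT1 was named because it passed in this comparison. How many kept probe sets have all nga-deficient arrays below all controls was not counted, so nothing is read from that order. The log2 difference was -0.87 (SE 0.17, limma adjusted p = 0.0138), a 1.83-fold fall. With the note of long days as a covariate, which leaves the wild-type arrays without it as the controls, the call ended (-0.74, limma adjusted p = 0.0663). Against wild-type replicates 5 to 7 alone, a part of the same controls, the call ended too (-0.59, limma adjusted p = 0.130). Dropping 1 array ended it as well, at a limma adjusted p of 0.0503 for quadruple mutant replicate 2 and of 0.0608 for amiR-NGA replicate 1.

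The 2 other family members whose difference exceeded 1 had a wide spread among the controls. AT5G23970 averaged 8.43 ± 0.23 (SD, n = 4) on nga-deficient arrays and 7.30 ± 0.99 (n = 7) on arrays labelled wild type, where it ran from 5.71 to 8.55 (log2 difference 1.13, limma adjusted p = 0.155). AT3G50280 averaged 6.68 ± 0.35 on nga-deficient arrays and 5.58 ± 0.90 on arrays labelled wild type (log2 difference 1.0996, limma adjusted p = 0.136). Neither passed, and both were named after their values were seen. CHAT (AT3G03480), whose enzyme makes the leaf volatile hexenyl acetate, had a log2 difference of -0.37 (limma adjusted p = 0.516), and HCT (AT5G48930), of lignin synthesis, lay between 8.59 and 9.05 on all 11 arrays; these were also named outside the rule.

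In the other families 0 of 10 further genes passed in either direction, against 4.42% of all kept probe sets, so the count says little about these families. Of the HAD-like hydrolases listed with AT3G62040, 4 of 6 others were kept, with log2 differences from -0.68 for AT5G02230 (limma adjusted p = 0.0699) to 0.33 for AT5G59480 (limma adjusted p = 0.114) and a median of -0.54. AT5G02230 was bright, at 8.13 to 8.86 on the nga-deficient arrays and 8.69 to 9.82 on those labelled wild type. Of the A/B barrel proteins 2 of 4 others were kept, AT2G31670 and AT2G32500, with differences of 0.41 and -0.18. Of the DUF662 proteins 4 of 5 others were kept, with a median of 0.27 and the largest difference, 0.38, for AT5G03660 (limma adjusted p = 0.214).

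**Figure D3:**
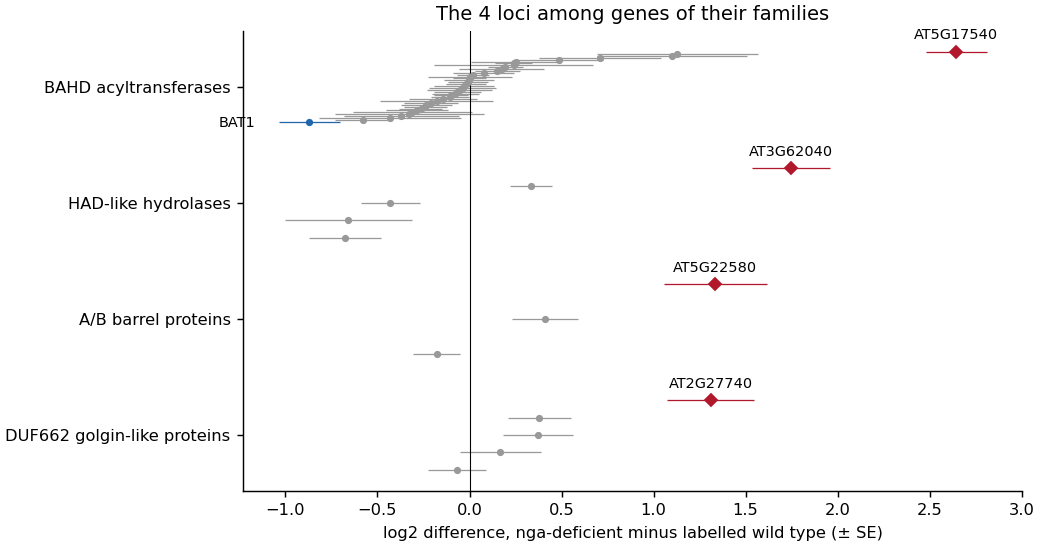
Log2 difference between nga-deficient arrays and arrays labelled wild type (horizontal axis, points with ± SE from limma) for every kept gene of the 4 family lists, arranged by family and, within a family, by size. Red diamonds are the 4 loci, the blue point is BAT1, the other gene past the threshold, and grey points did not pass. The 4 loci, at 1.31 to 2.65, lie to the right of all other genes of their families, the largest of which reaches 1.13. The loci were chosen for their rise in this comparison, so nothing is read from this order.

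The genes next to each locus were measured as well. Within 5 positions to either side in the RefSeq gene order, 13 of 40 neighbouring loci were matched to a kept probe set of 1 gene, with many probe sets unnamed in the annotation used. Past the limma threshold 0 of the 13 were changed in the nga-deficient comparison, against 4.42% of all kept probe sets. The 4 measured neighbours of AT5G17540 had log2 differences from -0.10 to 0.14, and those of AT3G62040 from -0.27 to 0.06. AT3G62040 lies close to a targeted gene: 6 loci separate it from NGA2 (AT3G61970), and its 4 measured neighbours included AT3G62000 and AT3G62010 on the side of NGA2, at 0.03 and -0.27. The part of this position in the value of AT3G62040 was not tested.

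The 4 measured neighbours of AT2G27740 all had differences above 0, from 0.26 to 0.44, the largest for the adjacent AT2G27730 (SE 0.12, limma adjusted p = 0.0585). Under some alternatives 1 to 3 of the 13 neighbours passed. Calls over all kept probe sets moved too, from 122 to 2977 over the alternatives against 792 of 17910 in the main fit. The 3 came with the replicate number as a block, and no label pairs arrays by that number. Nothing is therefore read from these neighbour counts. AT5G22580 had 1 kept neighbour, AT5G22600, at 0.01.

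**Figure D4:**
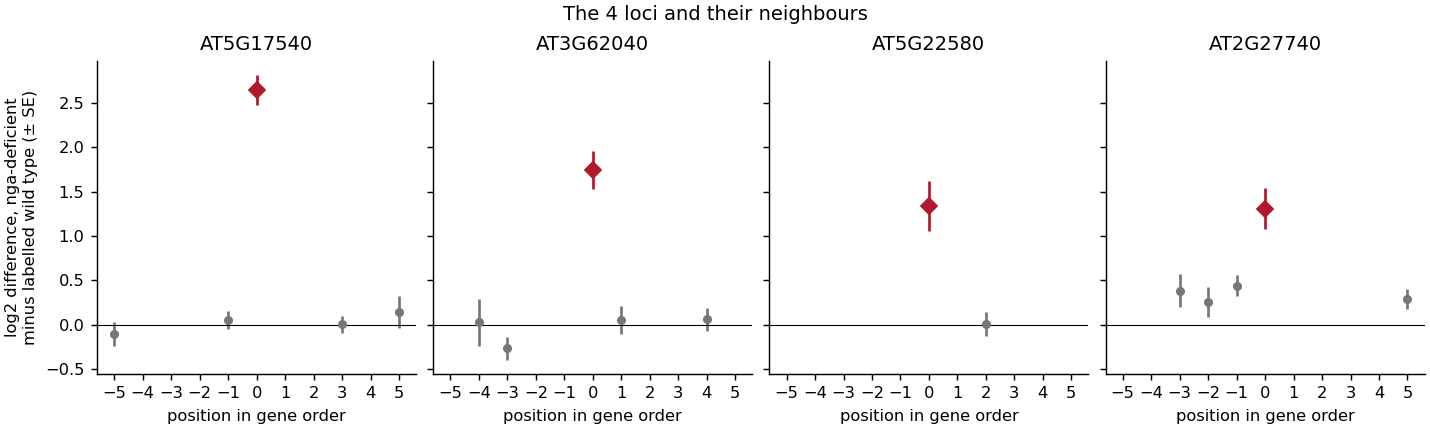
Log2 difference between nga-deficient arrays and arrays labelled wild type (vertical axis, ± SE from limma) of the 4 loci (red diamonds, position 0) and of the kept neighbours within 5 loci to either side (grey points). Positions count loci in the RefSeq gene order, not distance. The neighbours lie between -0.27 and 0.44 and the 4 loci between 1.31 and 2.65.

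Genes with the most similar profile were sought among 10057 other kept probe sets of 1 gene by Pearson correlation of log2 values over the 11 arrays, a description in which the difference between groups weighs most. For AT5G17540 they were AT1G18540 (r = 0.97), AT5G51220 (r = 0.94) and AT1G20430 (r = 0.93). In that order AT3G62040 had rank 5 (r = 0.92), AT2G27740 rank 84 and AT5G22580 rank 97. For AT3G62040 they were AT4G39320 (r = 0.96), ATMDAR2 (AT5G03630, r = 0.95), a monodehydroascorbate reductase of ascorbate recycling, and AT3G17780 (r = 0.95).

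AT5G22580 was most like AT1G26850 (r = 0.97), AT1G67300 (r = 0.94) and AT5G16450 (r = 0.94). AT2G27740 was most like AT1G09330 (r = 0.97), AT1G14990 (r = 0.96) and AT5G50370 (r = 0.96). The nga-deficient minus wild-type differences of these 12 genes ran from 0.28 for AT1G09330 to 1.02 for AT4G39320. With group means removed, a measure that leaves the differences between groups out, none of the 12 remained among the 3 nearest. The nearest by that measure were AT1G22860 for AT5G17540 (r = 0.97), AT4G27350 for AT3G62040 (r = 0.90), AT5G47890 for AT5G22580 (r = 0.96) and EMB2786 (AT3G17300) for AT2G27740 (r = 0.99). These are the highest of 10057 values each over few arrays. On that measure the loci correlated with each other from -0.58 (AT5G17540 with AT3G62040) to 0.41 (AT5G22580 with AT2G27740).

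Markers of other tissues were set beside the loci. Their lists were chosen with earlier results of these data known, so nothing is read from the counts past the threshold. The summed linear signal of the 4 measured green-tissue genes was 14233 and 15599 in the quadruple mutant and 12647 and 12773 in amiR-NGA, against 18662 to 24163 on the arrays labelled wild type, and 3 of the 4 fell past the limma threshold (HPR, LHCB4.2 and RCA), against 3.09% of all kept probe sets that were lower. The sum of the 3 measured tapetum and early anther genes ran from 3237 to 5040 on the nga-deficient arrays and from 3707 to 5942 on those labelled wild type, and 0 of the 3 passed, against 4.42% of all kept probe sets in either direction. Of the 8 pollen markers 0 passed in the nga-deficient comparison, where 1.33% of all kept probe sets were higher, with a median difference of 0.39 and the largest for AGL104 (0.90, limma adjusted p = 0.151). By genotype 1 of the 8 was higher past the threshold in the quadruple mutant, where 1.94% of all kept probe sets were higher. The median difference there was 0.72, and the pollen sum was 1556 on replicate 1 and 927 on replicate 2. In amiR-NGA 0 of the 8 were higher, where 0.117% of all kept probe sets were, with a median difference of 0.11. At these shares the counts do not show a difference between the genotypes. The part of these tissues in the values of the 4 loci was not tested.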

How the data were processed

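The authors deposited log2 values from GC-RMA, run in R 2.7.2 and Bioconductor 2.2 per the submitters' processing notes; no source here gives further settings. Values spanned 2.61 to 14.37, which fits a log2 scale. The table held 22810 probe sets, and 64 controls were removed. Names came from the platform annotation and a RefSeq gene table (TAIR10.1): 13436 probe sets had 1 gene, 503 several genes and 8730 were unlisted and stay unnamed. Differences were tested with limma 3.58.1 (R 4.3.3; lmFit and eBayes, two-sided), Benjamini-Hochberg adjustment over all kept probe sets, with 0.05 as the threshold. The nga-deficient fit had 2 groups, the genotype fits 3 groups, and the long-days fit the 7 arrays labelled wild type. The code was tested on simulated data.

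The members and the 10 lists (129 entries) were chosen with earlier results of these data known. Named genes were the 4 loci, family members past the threshold, the 3 most similar probe sets by each measure, and neighbours past the threshold; others are said to be outside this rule. The planned choice of the nearest family member by protein and the promoter motifs were not used here. For genes with several probe sets the brightest stood for the gene. The family of 1 listed BAHD locus, AT5G42840, is unsure. Alternatives covered the filter, scaling, array weights, eBayes settings, a block, covariates and arrays left out; those for the family genes, BAT1, the neighbours and the likeness were added after seeing the data. Precision is limited by how few arrays each group has.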

Additional observations from a re-analysis of the deposited data

Results flagged for a closer look

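Among 15 groups of 4 or 7 arrays examined for the 4 loci and BAT1, 2 had an array far from the others, and chance gives about 1 in 20. AT5G22580 measured 10.72 on quadruple mutant replicate 1, with 9.80 as the nearest of the other nga-deficient arrays; the actin difference and the pollen marker sum were also highest on that array, and their part was not tested. BAT1 measured 7.28 on amiR-NGA replicate 2, with 6.80 as the nearest of the other nga-deficient arrays.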

How the results depend on the processing

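The 4 loci were higher on nga-deficient arrays in every alternative that kept them. The log2 difference ran from 2.46 to 2.78 for AT5G17540 and from 1.56 to 1.96 for AT3G62040. It ran from 0.89 to 1.82 for AT5G22580 and from 1.01 to 1.97 for AT2G27740. The loci were chosen on this comparison, and all their nga-deficient arrays lay above every control. The direction could therefore hardly change, and nothing is read from it. With the filter at 6, AT3G62040 was not kept. Array weights gave 2977 calls for nga-deficient, 1650 for amiR-NGA and 45 between genotypes, where AT5G17540 passed at 0.76, and 446 by the long-days note, where AT5G22580 passed at 0.75 and AT2G27740 turned to 0.021; family genes past the threshold were then 2 higher and 3 lower, and neighbours 2. The replicate block rests on a number that only names arrays, since no label pairs them (deviations of same-numbered arrays correlated from -0.27 to 0.29). With the replicate block, calls were 1932 for nga-deficient, 252 for the quadruple mutant, 859 for amiR-NGA and 2 between genotypes, 8 family genes were higher and 3 neighbours passed, AT2G27740 was 1.97, 1.997 in the quadruple mutant and 1.935 in amiR-NGA, and AT5G22580 was 1.52 in amiR-NGA. With the note as a covariate, the counts were 256, 236 and 81 (nga-deficient, quadruple mutant, amiR-NGA) and 0 family genes were lower. With only the arrays compared, 2 differed between genotypes, and with the filter at 6, 12, and 1 neighbour passed, as with median centring, where AT5G17540 turned to -0.00064 by the note. Without the 3 arrays of high actin difference, 115 (quadruple mutant) and 421 (amiR-NGA) were called, 2 family genes were lower, AT5G17540 was 3.24 and AT5G22580 0.98 in the quadruple mutant, and by the note 1 was called and AT3G62040 turned to -0.095. Against wild-type replicates 5 to 7 the counts were 122, 193 and 44 with 0 family genes lower, and against replicates 1 to 4 they were 522, 445 and 78 with 1 family gene higher.

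Leaving out 1 array gave 227 to 971 calls for nga-deficient (lacking wild-type replicate 3, 416; lacking quadruple mutant replicate 1, 340, or 2, 309; lacking amiR-NGA replicate 1, 227), 37 to 961 for the quadruple mutant (37 without its replicate 1, 345 and 425 without wild-type replicates 3 and 4), 5 to 212 for amiR-NGA (5 without either of its arrays, 88 and 78 without wild-type replicates 3 and 5) and 13 to 157 between genotypes (13 when quadruple mutant replicate 1 or else amiR-NGA replicate 2 was dropped, 157 when quadruple mutant replicate 2 was). It gave 0 to 1 by the note, 0 to 2 family genes lower and 0 to 1 neighbours. AT5G17540 in the quadruple mutant ran from 2.85 to 3.20 and AT3G62040 in amiR-NGA from 1.11 to 1.85. By the note AT3G62040 ran from -0.051 to 0.38, AT2G27740 from -0.35 to 0.17 and AT5G17540 from -0.033 to 0.086, and between genotypes AT2G27740 ran from -0.23 to 0.36, none past the threshold. The causes were not tested.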
